A study of Homo sapiens with 6 samples.

Results

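Genes that report and restrain signalling through the kinase ERK were followed in SW480, a human colorectal adenocarcinoma line, after introduction of the forkhead factor FOXC2. The set was given as 46 gene symbols: secreted ligands, dual-specificity phosphatases, Sprouty and Spred inhibitors, ETS and AP-1 factors, immediate early genes and other targets of the pathway. A symbol was taken as measured where the array annotation gave it to a feature, and 41 of the 46 were, among 12562 named genes in all. SPRED3, ETV1, EGR2, AREG and EREG were not analysed here. SPRY1 had 2 features, and the one with the higher mean over the 6 arrays stood for the gene.

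Both groups were SW480 cells that had received a retroviral vector and puromycin, were grown with serum and were harvested near confluence. The FOXC2 group carried the FOXC2 construct and the pBabe group the empty vector. Each held 3 arrays from 3 separate cultures, and the labels name no separate transductions, so the spread shown is that between cultures. FOXC2 itself read 8777, 8262 and 8344 in its own group, against 2319, 2323 and 2818 with the empty vector. Median intensities of the arrays lay between 895 and 913. Of 8 measured markers of colorectal epithelium, the keratins KRT8 and KRT18 were bright in both groups, at mean intensities of 32103 and 22698 in FOXC2 and 35431 and 27896 in pBabe cultures, while 5 others rose in FOXC2 cells, as given with the other cell type markers.

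ERK is the last kinase of the cascade that runs from growth factor receptors through RAS, RAF and MEK. Active ERK enters the nucleus and switches on immediate early genes within minutes, without new protein synthesis. Among its targets are its own brakes: DUSP phosphatases strip the activating phosphates from ERK and related kinases, and Sprouty and Spred proteins act further up, on receptors, RAS and RAF.

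Among the 41 measured genes, 12 rose and 10 fell in FOXC2 cells, and 19 did not pass (limma on log2 intensities, Benjamini-Hochberg adjusted p under 0.05 over all 33497 features). The passing share was 53.7%, against 28.4% of all named genes, of which 14.1% were higher and 14.3% lower in FOXC2 cells. Without FOXC2 replicate 3 the count was 12 of 41. Over all 33497 features the count fell as well, to between 5752 and 6768 with each array left out, from 8819. For genes whose mean lay at or above the median of all values, the share was 64.3% in the set, 18 of 28, against 28.3% of such genes in all. The set, like the other lists below, was chosen with earlier results of these data known, so these shares are descriptions and not tests. The median log2 fold change, FOXC2 minus pBabe, was 0.02 in the set and 0.03 over all named genes. The median of its size was 0.50 in the set and 0.26 over all named genes. The groups did not overlap for 28 of the 41, with all FOXC2 cultures above all pBabe cultures in 16 and below them in 12; over all named genes the share without overlap was 48.4%. Genes passed in both directions among the phosphatases, the Sprouty and Spred genes, the AP-1 subunits, the early transcription factors and the other output genes.

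**Figure D1:**
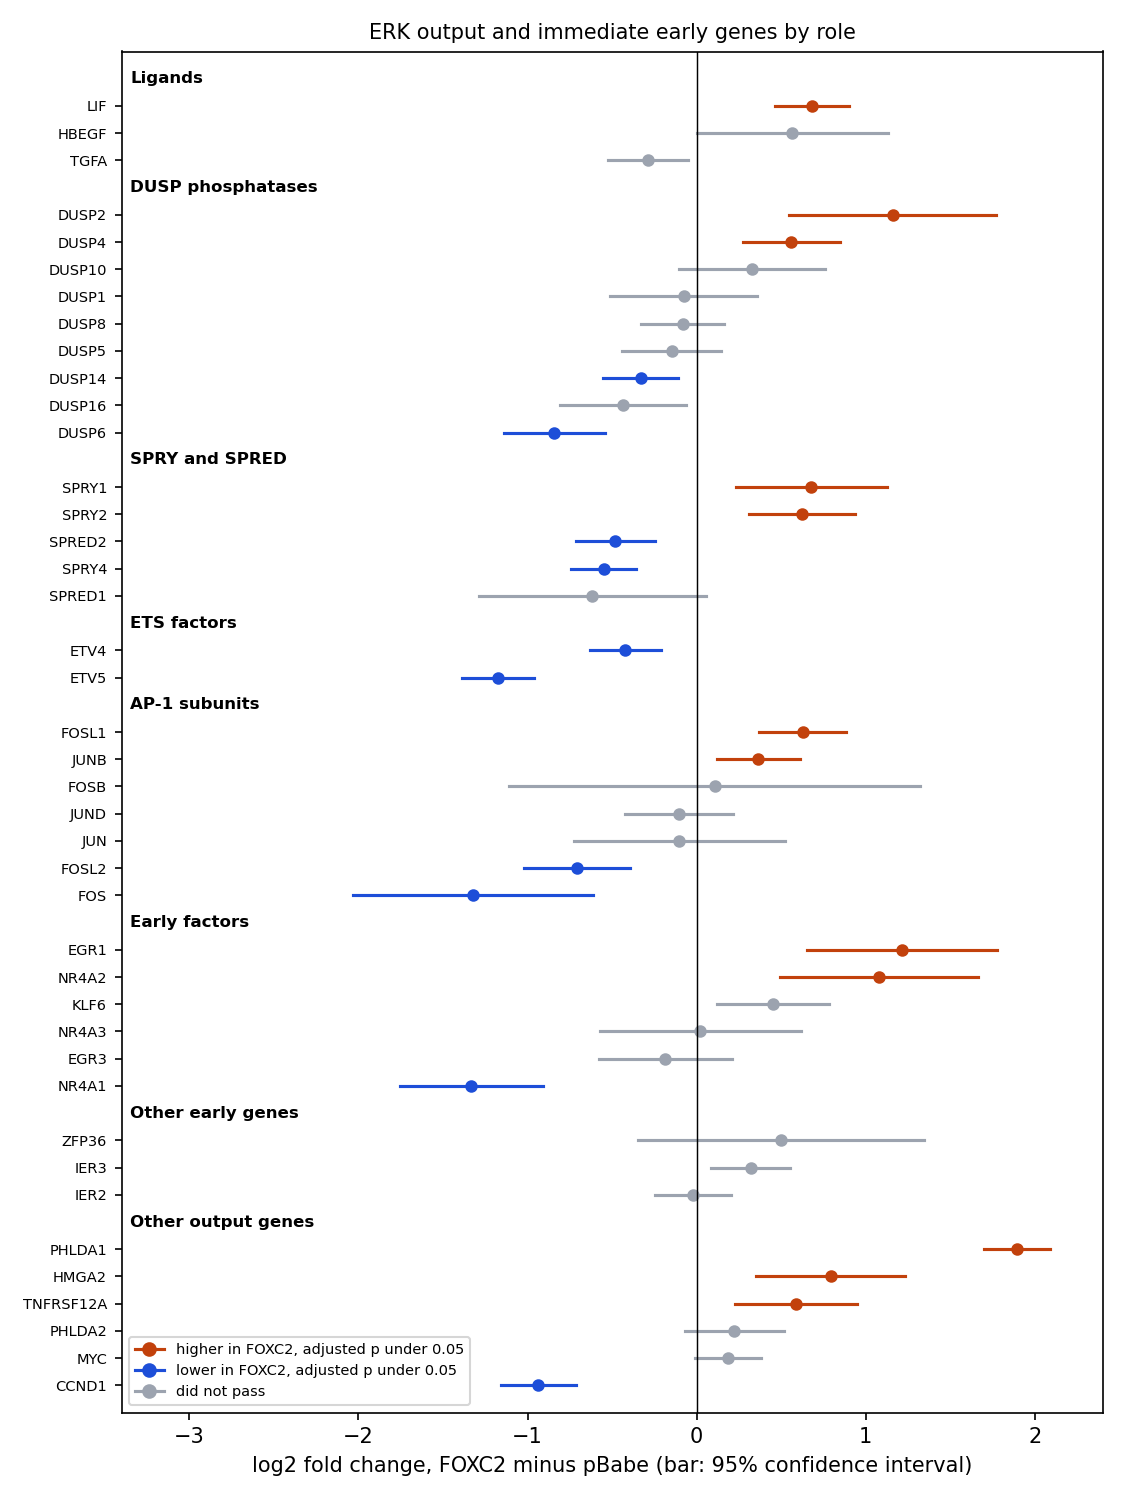
Log2 fold change (FOXC2 minus pBabe, x axis) of the 41 measured genes, grouped by role, with bars for the 95% confidence interval. Orange genes rose and blue genes fell at an adjusted p under 0.05, grey ones did not pass; PHLDA1 at 1.90 and NR4A1 at -1.33 mark the ends.

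**Figure D2:**
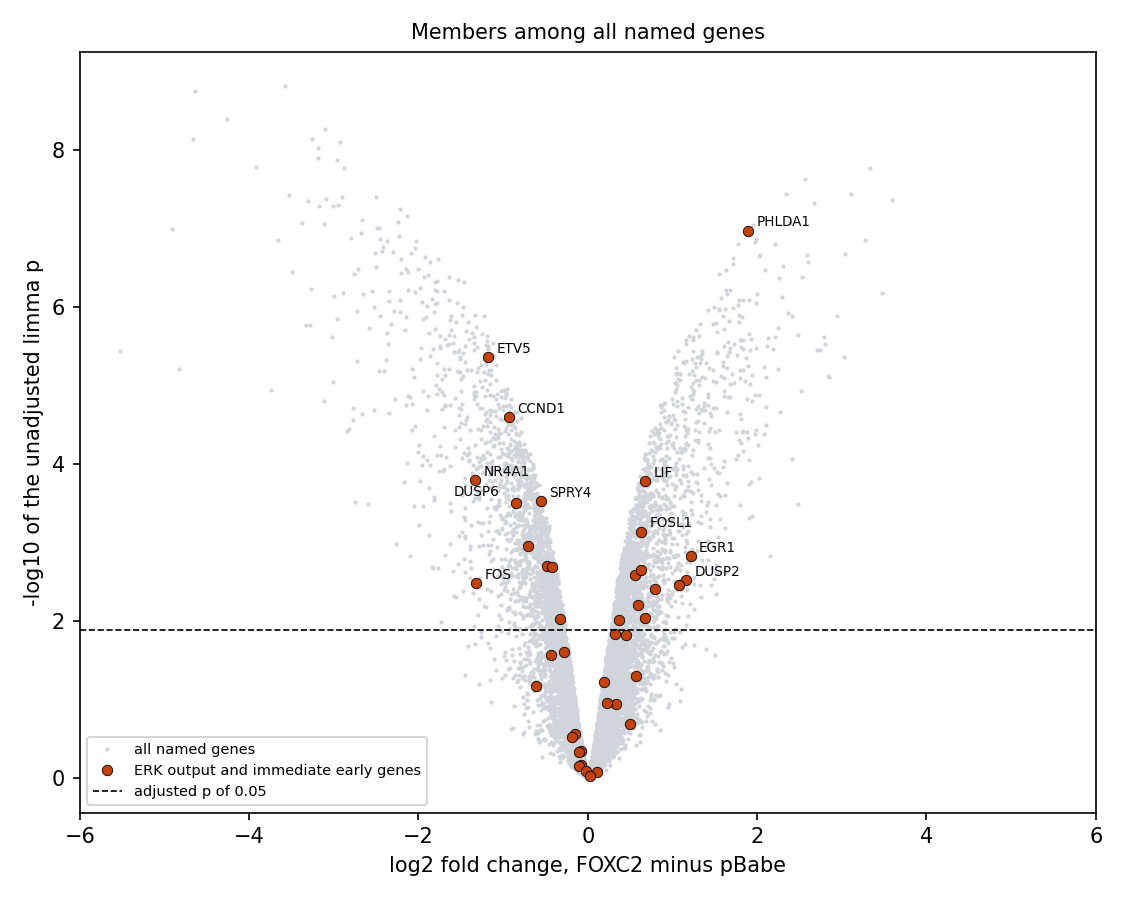
Log2 fold change (x axis) against the -log10 of the unadjusted limma p (y axis) for 1 feature per named gene (grey) and the 41 genes of the set (orange); the dashed line stands for an adjusted p of 0.05. The 22 passing genes of the set lie above the line on both sides of 0, and PHLDA1 has the lowest p among them.

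Among the ligands, LIF, a cytokine of the interleukin-6 family that is itself an ERK target, rose. LIF intensities were 8418, 8876 and 8712 in FOXC2 cultures and 5789, 5458 and 4995 in pBabe cultures. All FOXC2 values were above all pBabe values, a log2 difference of 0.68 ± 0.0917 (SE; limma adjusted p 0.00274). The EGF receptor ligands did not pass. HBEGF, a heparin-binding ligand shed from the surface, read 384, 459 and 486 in FOXC2 and 347, 372 and 203 in pBabe cultures (log2 fold change 0.57, adjusted p 0.126). TGFA had a log2 fold change of -0.29 and an adjusted p of 0.0774. In both the groups did not overlap, in opposite directions. Of 3 measured further EGF family ligands, only NRG4, a ligand of ERBB4, passed. It fell by 1.83 ± 0.380 (SE; adjusted p 0.0146), at 167, 59.7 and 62.7 in FOXC2 and 309, 293 and 308 in pBabe cultures. FOXC2 replicate 1 stood well above the other FOXC2 arrays, which lay near the lowest value of the table, 50.002.

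DUSP phosphatases split by member. DUSP2 and DUSP4, nuclear and induced by ERK signalling, rose, and DUSP6, the cytoplasmic phosphatase selective for ERK, fell. DUSP6 intensities were 6888, 6034 and 5701 in FOXC2 cultures and 9705, 12316 and 11424 in pBabe cultures. Every FOXC2 culture lay below every pBabe culture, and the mean on the log2 scale was 12.60 ± 0.140 against 13.44 ± 0.176 (SD, n = 3 each). The log2 difference was -0.84 ± 0.126 (SE; limma adjusted p 0.00412), and DUSP6 passed with each array left out.

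DUSP2 read 1425, 1853 and 2199 in FOXC2 cultures and 1099.7, 814 and 582 in pBabe cultures, a 2.23-fold rise (95% confidence interval 1.46 to 3.42; adjusted p 0.0186). Its cultures were far apart in both groups, yet the groups did not overlap. DUSP2 no longer passed without FOXC2 replicate 2, FOXC2 replicate 3 or pBabe replicate 2 (adjusted p 0.0522 to 0.0598). DUSP4 read 2555, 2642 and 3104 in FOXC2 and 1987, 1984 and 1665 in pBabe cultures, a log2 fold change of 0.56 ± 0.120 (SE; adjusted p 0.0166, and 0.0530 without FOXC2 replicate 3). DUSP14, a small atypical phosphatase, fell to 4506, 4450.0 and 4522 in FOXC2, against 5887, 5150.5 and 5956 in pBabe cultures. That change was small, at -0.33 (adjusted p 0.0397), and no longer passed with any 1 array but pBabe replicate 2 left out (0.0903 to 0.105).

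The other phosphatases did not pass. DUSP1, the founding stress- and serum-induced member, had a log2 fold change of -0.08 (adjusted p 0.788), and nuclear DUSP5, which acts on ERK, -0.15 (0.415). The members that prefer the kinases JNK and p38 stood at -0.08 for DUSP8 (0.591), 0.33 for DUSP10 (0.225) and -0.44 for DUSP16 (0.0828). DUSP16 read 339, 415 and 449.5 in FOXC2 and 577, 603 and 452 in pBabe cultures; it passed without pBabe replicate 3 (0.0465). From the separate list of cascade genes, DUSP9, the close relative of DUSP6, also fell. DUSP9 intensities were 705, 621 and 645 in FOXC2 cultures and 2099, 2284 and 2011 in pBabe cultures, a log2 fold change of -1.70 ± 0.0965 (SE; adjusted p 9.63e-05). DUSP7, the third cytoplasmic phosphatase of ERK, had -0.04 (0.884).

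Sprouty and Spred genes also went both ways. SPRY4 fell to 16447, 16713 and 17019.9 in FOXC2 cultures, against 25447, 24573 and 23505 in pBabe cultures. SPRED2, which recruits neurofibromin to RAS, fell to 2448, 2269.5 and 2123 in FOXC2, against 3290.2, 2938 and 3315 in pBabe cultures. In neither did the groups overlap, and the log2 fold changes were -0.55 ± 0.0814 (SE; adjusted p 0.00399) for SPRY4 and -0.48 ± 0.0990 (SE; 0.0140) for SPRED2, which no longer passed without FOXC2 replicate 3 (0.0528). In contrast SPRY2, the most studied Sprouty of epithelial cells, rose. SPRY2 read 1102, 915 and 885 in FOXC2 and 553, 629.5 and 700.2 in pBabe cultures, a log2 fold change of 0.62 ± 0.131 (SE; adjusted p 0.0151).

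SPRY1 rose as well, and its 2 features, which carry different transcript accessions of the gene, differed in size. The brighter one read 311, 329 and 390.5 in FOXC2 and 278, 173 and 203 in pBabe cultures, with a log2 fold change of 0.68 ± 0.188 (SE; adjusted p 0.0388). It no longer passed with any 1 array but pBabe replicate 1 left out (0.0631 to 0.115), or after quantile normalization (0.0559). The dimmer SPRY1 feature read 250.1, 245 and 247 in FOXC2 and 83.1, 99.8 and 93.0 in pBabe cultures, a log2 fold change of 1.43 ± 0.0970 (SE; adjusted p 1.82e-04). SPRED1 was dim, at 97.1, 83.9 and 92.3 in FOXC2 and 219, 130.3 and 95.2 in pBabe cultures, and did not pass (-0.62, adjusted p 0.153); without pBabe replicate 3 it did (0.0460). IL17RD, a membrane inhibitor of FGF signalling taken from the cascade list, fell by 1.11 ± 0.169 (SE; adjusted p 0.00444), at 211, 155 and 237 in FOXC2 and 441, 453 and 388 in pBabe cultures.

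Both measured ETS factors of the PEA3 subfamily, which carry FGF and ERK signals to the genome, fell. ETV5 intensities were 2747, 2729 and 2663 in FOXC2 cultures and 5675, 6181 and 6519 in pBabe cultures. The FOXC2 level was 44.4% of the pBabe level (95% confidence interval 38.3 to 51.4; adjusted p 2.78e-04), and the cultures of a group lay close together. ETV4 read 13939, 13449 and 13065 in FOXC2 and 19002, 18219.7 and 16976 in pBabe cultures, a log2 fold change of -0.42 ± 0.0873 (SE; adjusted p 0.0144). ETV4 no longer passed without FOXC2 replicate 3 (0.0555).

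**Figure D3:**
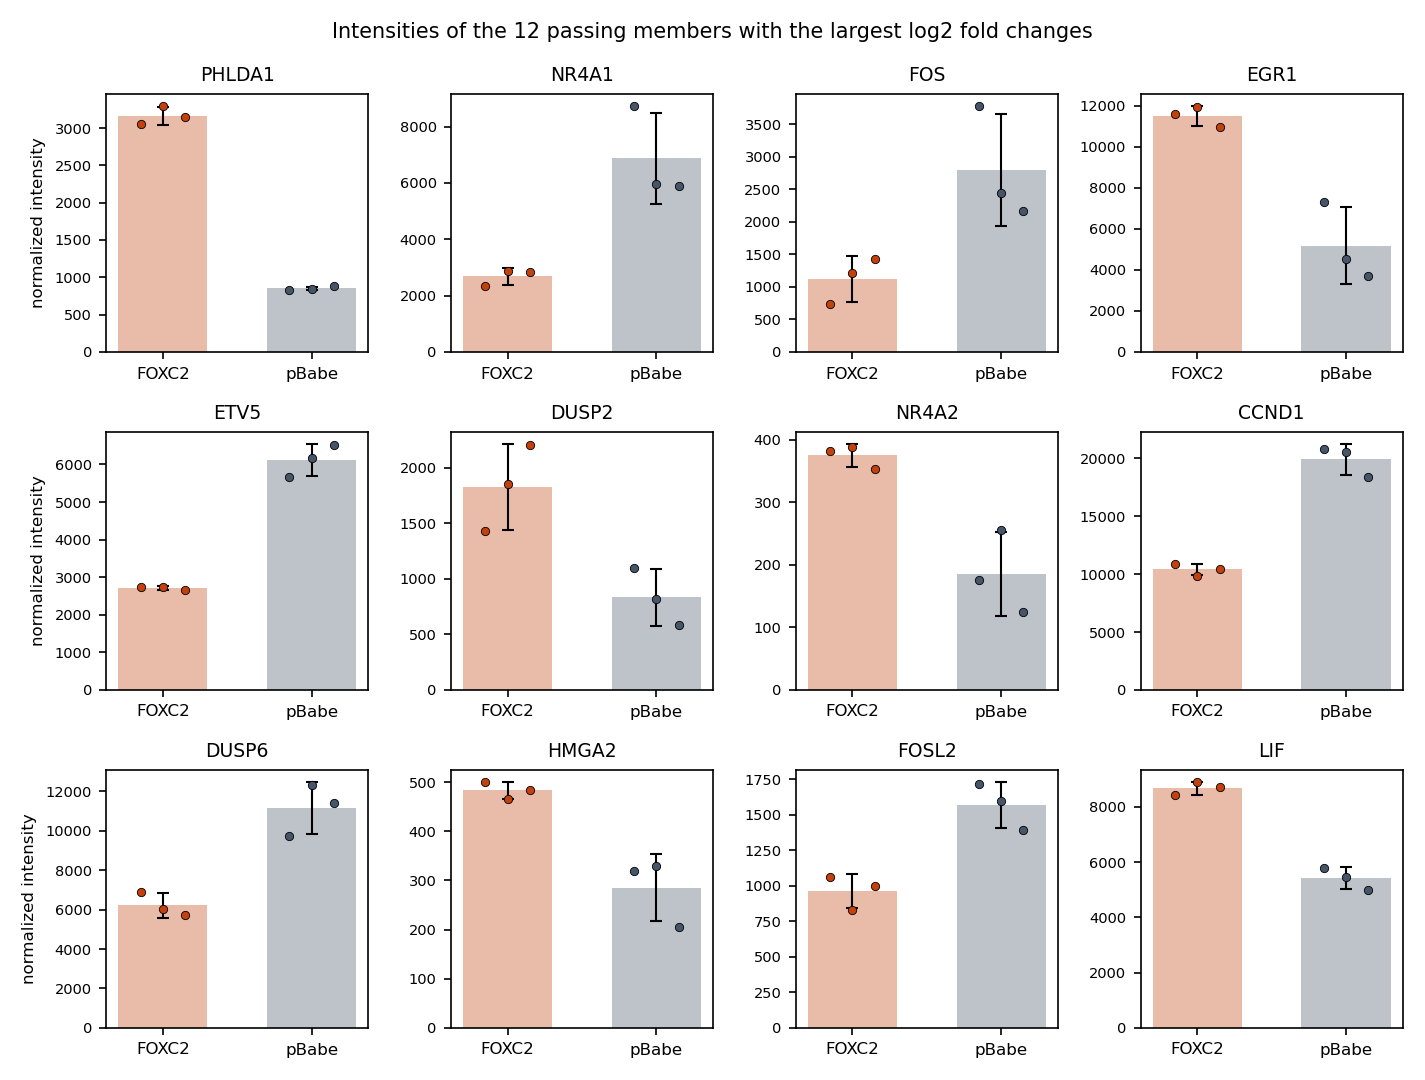
Normalized intensities (y axis, linear, from 0) of the 12 passing genes with the largest log2 fold changes in FOXC2 (orange) and pBabe (grey) cultures; points are arrays, bars means and error bars SD (n = 3). In each panel the points of the 2 groups do not overlap. Among these genes the SD of log2 intensity within a group is largest for DUSP2, FOS, EGR1 and NR4A2.

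AP-1 is a dimer of a FOS and a JUN family protein, and its subunits did not move together. FOSL1 (FRA-1), the subunit that ERK stabilises and that is abundant in invasive cells, rose. FOSL1 intensities were 34174, 32324 and 32873 in FOXC2 and 23935, 21676 and 19021 in pBabe cultures, a log2 fold change of 0.63 ± 0.108 (SE; adjusted p 0.00719). FOSL2 (FRA-2) fell to 1062, 829 and 999 in FOXC2, against 1713, 1599 and 1395 in pBabe cultures, a log2 fold change of -0.71 ± 0.131 (SE; adjusted p 0.00951). In both the groups were apart on all arrays, and both passed with each array left out.

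FOS, the prototype immediate early gene, fell to 738, 1212 and 1429 in FOXC2 cultures, against 3783, 2439.8 and 2163 in pBabe cultures. FOXC2 replicate 1 and pBabe replicate 1 stood apart within their groups, which did not overlap. The FOXC2 level was 40.0% of the pBabe level, with a wide interval of 24.4 to 65.5 (adjusted p 0.0196, and 0.0502 without pBabe replicate 1). FOSB read 1481, 1958 and 2790.0 in FOXC2 and 3209.8, 2465 and 819 in pBabe cultures. Its groups overlapped (log2 fold change 0.11, adjusted p 0.898), and the sign turned without pBabe replicate 3 (-0.49, adjusted p 0.271). Of the JUN proteins only JUNB passed, at 4049, 4164 and 4389 in FOXC2 and 3589, 3273 and 2949 in pBabe cultures (log2 fold change 0.36 ± 0.102, SE; adjusted p 0.0403). JUNB passed with pBabe replicate 1 left out and with no other single array left out (0.0744 to 0.122). JUN and JUND each had a log2 fold change of -0.10 (adjusted p 0.804 and 0.611).

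Among the zinc finger factors, EGR1, which serum and ERK induce through the factors SRF and ELK1, rose. EGR1 intensities were 11616, 11947 and 10990.3 in FOXC2 cultures and 7290.5, 4538 and 3701 in pBabe cultures. The FOXC2 cultures lay close together and the pBabe cultures far apart, without overlap, and the rise was 2.32-fold (95% confidence interval 1.57 to 3.42; adjusted p 0.0116). It passed with each array left out. EGR3 did not pass (-0.18, adjusted p 0.444). KLF6 read 2931, 3682 and 3370.2 in FOXC2 and 2856, 2199.5 and 2267 in pBabe cultures (0.45, adjusted p 0.0555), and passed without pBabe replicate 1 (0.0311) and under 4 of the 9 alternatives that kept all arrays (0.00636 to 0.0474).

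The stretches before the starts of 4 of these genes are shown because EGR1 and FOS, both classed as SRF-driven early genes, moved in opposite directions, and because JUNB and DUSP2 hold a forkhead and an EGR element. They are the 250 bases up to the gene start, 5′ to 3′ on the gene's strand, from RefSeq on GRCh38.p14, and capitals mark matches to any of the 5 motifs searched. The EGR1 stretch is chr5:138465229-138465478 (plus strand), that of FOS chr14:75278578-75278827 (plus), that of JUNB chr19:12791236-12791485 (plus) and that of DUSP2 chr2:96145441-96145690 (minus).
EGR1: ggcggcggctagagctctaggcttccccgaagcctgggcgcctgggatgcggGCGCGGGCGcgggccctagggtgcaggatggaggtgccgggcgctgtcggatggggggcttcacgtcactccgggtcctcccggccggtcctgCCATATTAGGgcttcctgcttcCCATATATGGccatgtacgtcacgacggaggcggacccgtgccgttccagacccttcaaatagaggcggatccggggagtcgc
FOS: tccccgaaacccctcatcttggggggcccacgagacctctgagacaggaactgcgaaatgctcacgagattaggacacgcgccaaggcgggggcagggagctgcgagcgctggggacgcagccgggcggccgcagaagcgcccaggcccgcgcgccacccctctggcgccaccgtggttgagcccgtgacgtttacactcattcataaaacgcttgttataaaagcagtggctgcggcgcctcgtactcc
JUNB: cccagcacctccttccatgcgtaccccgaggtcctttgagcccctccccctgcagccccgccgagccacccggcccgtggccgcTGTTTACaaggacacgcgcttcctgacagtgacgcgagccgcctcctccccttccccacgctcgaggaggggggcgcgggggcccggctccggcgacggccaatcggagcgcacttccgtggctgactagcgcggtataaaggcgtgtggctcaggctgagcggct
DUSP2: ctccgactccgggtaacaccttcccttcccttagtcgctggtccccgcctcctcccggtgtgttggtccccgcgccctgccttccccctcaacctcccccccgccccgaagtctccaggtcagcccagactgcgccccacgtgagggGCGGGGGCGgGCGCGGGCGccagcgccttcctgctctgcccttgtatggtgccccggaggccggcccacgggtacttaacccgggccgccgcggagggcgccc

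Both strands were searched for the CArG box of SRF, the EGR element GCGNGGGCG, the forkhead element TGTTTAC, the AP-1 element TGANTCA and the cAMP response element TGACGTCA. EGR1 held 2 CArG boxes, the first from base 105 to 96 and the second from base 83 to 74 before its start, and 1.16% of all 35116 promoters in the table held at least 1. Of the 27 measured genes that had a promoter there, with 34 promoters, EGR1 was the only one with a CArG box in this window. Bases further upstream were not searched, so a CArG box of FOS or another gene beyond the window would have been missed. Whether EGR1 and FOS differ in such boxes was therefore not tested. The EGR element lay in 8 of the 34 promoters (23.5%), against 8.41% of all, but the median share of G and C was 69.0% in those 34 and 58.0% over all promoters. The genes that held it had no common direction: EGR1, DUSP2, SPRY1 and SPRY2 rose, SPRY4 and DUSP14 fell, and KLF6 and DUSP16 did not pass. JUNB alone held the forkhead element, at bases 166 to 160, which 2.98% of all promoters held. The cAMP response element lay before DUSP1, DUSP8 and JUND, which did not pass, and in 1.65% of all promoters. The AP-1 element lay in 0 of the 34 promoters and in 6.57% of all. These are matches of letters, not binding sites.

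The NR4A orphan nuclear receptors, early genes of growth factor and calcium signals, split as well. NR4A1 fell to 2346, 2876 and 2851 in FOXC2 cultures, against 8737, 5959 and 5904 in pBabe cultures. The groups did not overlap, with pBabe replicate 1 above the other pBabe cultures. The FOXC2 level was 39.7% of the pBabe level (95% confidence interval 29.6 to 53.2; adjusted p 0.00266), the largest fall of the set on the log2 scale. NR4A2 rose to 382, 389 and 354 in FOXC2, against 176, 256 and 124 in pBabe cultures, 2.11-fold (95% confidence interval 1.41 to 3.17; adjusted p 0.0203). NR4A2 no longer passed without any 1 of the FOXC2 arrays or without pBabe replicate 1 (0.0524 to 0.0597). NR4A3 lay near the lowest values of the table on every array and had a log2 fold change of 0.02 (adjusted p 0.958).

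IER2, IER3 and ZFP36, early genes that encode a nuclear regulator, a survival factor and an mRNA-destabilising protein, did not pass. IER3 read 30837, 28063 and 29244 in FOXC2 and 25590.5, 23488 and 21610.1 in pBabe cultures, without overlap (0.32, adjusted p 0.0535). It passed under 5 of the 9 alternatives that kept all arrays (adjusted p 0.00498 to 0.0474). IER2 had a log2 fold change of -0.02 (adjusted p 0.883). ZFP36 read 1357, 1869 and 2259 in FOXC2 and 2088, 1202 and 807 in pBabe cultures, with overlap (0.50, adjusted p 0.336).

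PHLDA1, a pleckstrin homology-like protein that ERK signalling induces and that also marks intestinal stem cells, showed the largest rise of the set. PHLDA1 intensities were 3051, 3298 and 3142 in FOXC2 cultures and 831, 842 and 878 in pBabe cultures. The cultures of each group were close together, and the rise was 3.72-fold (95% confidence interval 3.25 to 4.26; adjusted p 4.44e-05). Its relative PHLDA2, an imprinted growth regulator, did not pass (0.22, adjusted p 0.220).

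CCND1, the cyclin D1 through which ERK drives entry into the cell cycle, fell to 10862, 9874 and 10482 in FOXC2, against 20795, 20572 and 18379 in pBabe cultures. Every FOXC2 culture lay far below every pBabe culture, at 52.3% of the pBabe level (95% confidence interval 44.8 to 61.0; adjusted p 8.38e-04). MYC, the growth-promoting factor, did not pass, at 27401, 29141 and 26859 in FOXC2 and 25051, 24234 and 23957 in pBabe cultures (0.19, adjusted p 0.141). All 3 FOXC2 values of MYC lay above the pBabe values by a small margin.

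HMGA2, a chromatin protein of embryonic and invasive cells, rose to 500.2, 465 and 484 in FOXC2, against 319, 329 and 206 in pBabe cultures. The groups did not overlap (0.79 ± 0.186, SE, on the log2 scale; adjusted p 0.0221), and HMGA2 no longer passed without any 1 of the FOXC2 arrays (0.0549 to 0.0640). TNFRSF12A (FN14), the receptor of the cytokine TWEAK, rose to 21082, 21084 and 22275 in FOXC2, against 18010.0, 12462 and 12939.8 in pBabe cultures. Here pBabe replicate 1 stood apart from the other pBabe cultures, and the log2 fold change was 0.59 ± 0.152 (SE; adjusted p 0.0304). Without pBabe replicate 1 it was 0.76 (adjusted p 0.00532), and without any other 1 array it did not pass (0.0698 to 0.0904).

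The cultures of the pBabe group were spread further than those of the FOXC2 group. The SD of log2 intensity was larger in pBabe than in FOXC2 cultures for 32 of the 41 genes, against 54.7% of all named genes. The median SD over the set was 0.107 in FOXC2 and 0.176 in pBabe cultures, and over all named genes 0.123 in FOXC2 and 0.136 in pBabe cultures. The AP-1 subunits and early genes shared a pattern within pBabe. Of these 16 genes, pBabe replicate 1 was the highest pBabe culture in 14 and replicate 3 the lowest in 13, against 29.2% and 33.4% of all named genes. FOXC2 replicate 1 was the lowest FOXC2 culture in 10 of the 16, against 37.7% of all named genes. The highest pBabe culture was 3.92 times the lowest for FOSB, 2.59 times for ZFP36, 2.07 times for NR4A2 and 1.97 times for EGR1. This pattern was noticed after the values were seen, and its part in the differences between the groups was not tested beyond leaving out each array.

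**Figure D4:**
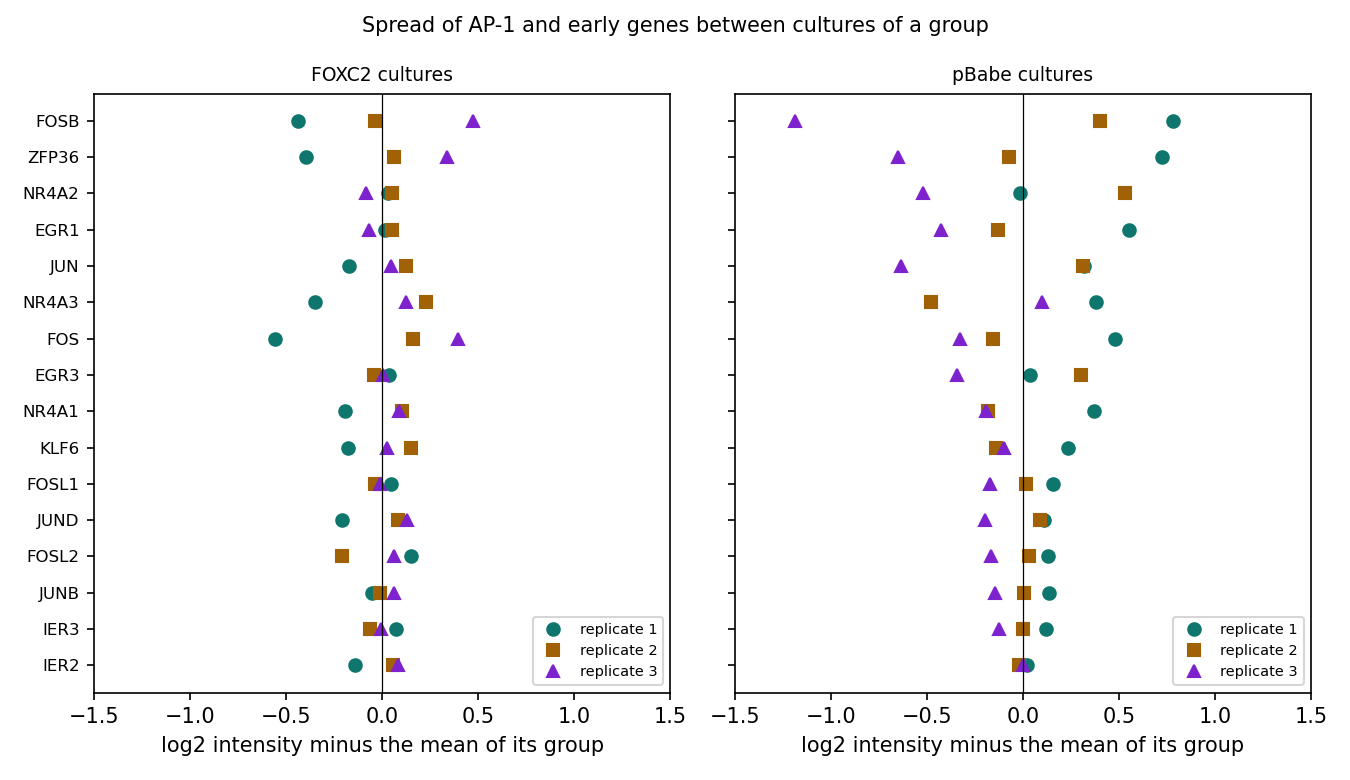
Log2 intensity minus the mean of its group (x axis) for the 16 AP-1 subunits and early genes, FOXC2 cultures on the left and pBabe cultures on the right, with a symbol for each replicate. In pBabe, replicate 3 (triangles) is lowest for 13 genes and replicate 1 (circles) highest for 14.

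A separate list held receptors, adaptors, kinases and regulators of the cascade together with substrates of ERK. Of its 39 measured genes, 6 rose and 6 fell, a share of 30.8% beside the 28.4% of all named genes (median log2 fold change -0.04, against 0.03). That count was 6 to 8 with each array left out, and 6 without FOXC2 replicate 3 and 7 without FOXC2 replicate 2. In these fits 5752 to 6768 of all 33497 features passed, against 8819 with all arrays. The receptor ERBB3 rose to 909, 832 and 937 in FOXC2, against 229.7, 216 and 235 in pBabe cultures (log2 fold change 1.98 ± 0.0904, SE; adjusted p 4.93e-05). Its partner ERBB2 rose by 0.70 (0.00544), while EGFR had a log2 fold change of 0.03 (0.806). The RAS GTPase-activating proteins went both ways, with RASAL1 at 1.11 (0.0215) and RASAL2 at 0.68 (0.00741) but RASA2 at -0.56 (0.00741). RASAL1 read 62.5, 77.8 and 117 in pBabe cultures, near the lowest values of the table. The ERK-activated kinase RPS6KA3 (RSK2) fell by 0.49 (0.0376). The MEK kinases MAP2K1 (-0.05, adjusted p 0.728) and MAP2K2 (0.07, adjusted p 0.638) did not pass. MAPK3, a gene of ERK itself, rose by 0.30 (adjusted p 0.0429), and the adaptor GAB2 by 0.38 (adjusted p 0.0192). RRAS (-0.47, adjusted p 0.0282) and the RAF gene ARAF (-0.27, adjusted p 0.0486) fell. MAPK3, GAB2, RRAS and ARAF did not pass without FOXC2 replicate 3. The 6 genes that passed there were DUSP9, IL17RD, RASA2, ERBB3, ERBB2 and RASAL2. RASAL1 no longer passed in 4 and RPS6KA3 in 5 of the 6 fits with 1 array left out (0.0555 to 0.0698 and 0.0675 to 0.115).

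Among 27 measured further immediate early genes, 5 rose and 7 fell, or 44.4% beside 28.4% of all named genes (median log2 fold change -0.13, against 0.03). CCN2, a matricellular growth factor, rose to 533, 649 and 663 in FOXC2, against 217, 299.8 and 201 in pBabe cultures (1.38 ± 0.174, SE; adjusted p 0.00210). EGR4 (0.96), GADD45A (0.59) and the kinase PLK3 (0.58) also rose. EGR4 read 73.5, 114 and 70.5 in pBabe cultures, near the lowest values of the table. The C/EBP factors CEBPD (-1.34, adjusted p 5.86e-04) and CEBPB (-0.89, adjusted p 0.00305) fell, as did CITED2 (-1.02) and the stress gene GADD45B (adjusted p 0.0178). GADD45B lost its call in 3 of the 6 fits with an array left out, those lacking pBabe replicate 1, pBabe replicate 2 and FOXC2 replicate 2 (0.0502 to 0.0525).

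Genes that serve as markers of other cell types also differed between the 2 groups of this line. Of 5 measured fibroblast markers, 4 fell, COL1A1, COL6A3, PDGFRB and DCN, or 80.0% beside the 28.4% of all named genes that passed. COL3A1 did not pass, with all FOXC2 cultures above all pBabe cultures (0.37, adjusted p 0.116). The sum of the 5, to which COL1A1 adds most, was 1273 to 1409 in FOXC2 and 4539 to 5147 in pBabe cultures. The single measured leukocyte marker, CD3D, was 72.4 to 94.7 in FOXC2 and 675 to 813 in pBabe cultures, and PTPRC, which defines leukocytes, was not analysed here. Both measured endothelial markers, CLDN5 and EGFL7, rose, with sums of 1985 to 2094 in FOXC2 and 1089.8 to 1153 in pBabe cultures. Of the 8 epithelial markers, 5 rose and 1 fell, or 75.0% beside 28.4% of all named genes. VIL1 rose 8.62-fold, EPCAM 5.08-fold, CDX2 2.28-fold, KRT19 2.09-fold and LGALS4 1.38-fold, whereas KRT18 fell (-0.30 on the log2 scale, adjusted p 0.0353) and KRT8 (-0.14, adjusted p 0.315) and CDH17 (-0.12, adjusted p 0.912) did not pass. The sum of the 8, to which KRT8 and KRT18 add most, was 73348 to 77636 in FOXC2 and 67798 to 72957 in pBabe cultures. The part of these markers in the results was not tested, and in bulk RNA fewer cells of a type and less RNA per cell cannot be told apart.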

How the data were processed

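Cy3-labelled material from 6 cultures was read on NimbleGen arrays of 1 colour, per the labels' protocols. The authors deposited linear intensities, from 50.002 to 57044, made with RMA per the submitters' processing notes. Its version and settings and the array's genome build were not given in the sources used here. Of 33497 features, 13730 carried 1 gene symbol in the platform annotation and 19767 none. Where a gene had several features, the one with the highest mean log2 value was used. Log2 intensities were compared in limma 3.58.1 (R 4.3.3; lmFit and eBayes) with no further normalization or filter, and p-values adjusted by Benjamini-Hochberg over all features. The steps were tested on simulated data. Detection calls and scan batches were not used here, and the number of arrays limits precision. The genes and lists were chosen with earlier results of these data known. All measured genes of the set are named, and from each other list up to 4 passing genes in each direction. EGFR, DUSP7, MAP2K1, MAP2K2, MAPK3, GAB2, RRAS, ARAF and the markers were added after their values were seen. Same-numbered cultures did not deviate together (correlations of deviations -0.10, -0.12 and -0.06), so they were not paired.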

Additional observations from a re-analysis of the deposited data

How the results depend on the processing

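Besides leaving out each array, 9 alternatives were run, among them other normalizations, priors, weights and choices of feature. Of 22 passing genes, 10 passed in all 15 alternatives: PHLDA1, EGR1, LIF, FOSL1, ETV5, CCND1, NR4A1, DUSP6, SPRY4 and FOSL2. The count of passing genes was 12 to 20 with each array left out, 12 without FOXC2 replicate 3, and 21 to 26 under the other alternatives except the replicate block. With dim features left out, 17687 of the 33497 features were kept, and part of the set was not among them. With the replicate number as a block 14 genes passed, but same-numbered cultures share only a number, and none of the 3 pairs deviated together. Under that block the count over all features fell as well. Over all features 5752 to 6768 passed with each array left out, against 8819. The cascade list gave 6 to 8, and the JNK and p38 list, 3 to 5. The list of EGF family ligands had 2 passing members with the mean over a gene's features or the feature with the lowest mean, and kept no feature, hence 0, with dim features left out. Of the genes that did not pass, IER3 passed under 5 of the 9 alternatives that kept all arrays, KLF6 under 4, TGFA under 2 (adjusted p 0.0237 and 0.0345) and MYC under 1 (0.0480), and several others changed sign. With each array left out the log2 fold change ranged from -0.28 to 0.034 for DUSP1, from -0.20 to 0.0022 for JUND, from -0.065 to 0.048 for IER2, from -0.49 to 0.50 for FOSB, from -0.42 to 0.056 for JUN and from -0.22 to 0.21 for NR4A3, which was -0.067 after quantile normalization. The alternatives for the JNK and p38 and EGF family lists and for the single genes outside the set were added after the data were seen. The causes were not tested. SPRED1 and NR4A3 lie near the lowest values of the table, so their folds are limited by signal. The same holds in pBabe cultures for RASAL1, EGR4, MAP3K5 and the dimmer SPRY1 feature.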

Other observations

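The parallel JNK and p38 kinases were also measured. Of 10 genes, 4 rose and 2 fell, or 60.0% beside 28.4% of all named genes (median log2 fold change 0.19). Without pBabe replicate 3 the passing count was 3. Over all 33497 features 5752 to 6768 passed with each array left out, against 8819 with all 6. MAPK13, the p38 delta kinase of epithelia, rose to 985, 827 and 869.9 in FOXC2, against 279, 231 and 270.2 in pBabe cultures (log2 fold change 1.78 ± 0.116, SE; adjusted p 1.57e-04). MAP3K5 (ASK1), a stress-activated kinase, rose by 1.18 (0.00138). Its pBabe values of 75.5, 86.5 and 69.05 were near the lowest of the table. The JNK gene MAPK9 fell to 1066, 859.9 and 1036 in FOXC2, against 2005, 2047 and 1847 in pBabe cultures (adjusted p 0.00134). MAP2K3 (0.53, adjusted p 0.0207) and MAP2K4 (0.44, adjusted p 0.0439), which phosphorylate p38 and JNK, rose. The RNA of ATF2, a target of p38 and JNK, fell by 0.37 (0.0314). With 1 array left out MAP2K3 no longer passed in 2 of 6 fits, and MAP2K4 and ATF2 each in 5 of 6 (adjusted p 0.0543 to 0.0625, 0.0691 to 0.109 and 0.0628 to 0.0867).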
